A study of Mus musculus with 4 samples.

Results

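The genes described here are 10 genes known from brown adipose tissue: Ucp1, Cidea, Elovl3, Cox8b, Cox7a1, Ppargc1a, Dio2, Ppara, Prdm16 and Klb. All probe sets annotated to 1 of these symbols alone were taken, 22 of the 34945 probe sets that name 1 gene, so that the 10 genes stand among 18193 with a probe set. The set was selected on the array signals themselves, since it was proposed with the FoxO6-/- to wild type (WT) ratios in both tissues and the array with the highest signal already known. Every value of the members is therefore a description and carries no test.

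RNA was hybridized to Affymetrix GeneChip mouse arrays from brain and from mandible and maxilla of FoxO6-/- and WT mice, 1 array per genotype in each tissue. The labels give postnatal day 0 for all 4 arrays, whereas the methods speak of embryos for the mandible and maxilla. In the mutants both exons of Foxo6, a forkhead transcription factor gene, are replaced in the germ line by a LacZ and neomycin cassette, and the mice were kept on a C57BL/6 background. The methods state that RNA of 4 animals was combined, naming mandible and maxilla in one place and no tissue in another, so that pooling of the brain RNA is less certain. They add that the mutants included heterozygotes, without saying whether any of these entered the arrays labelled FoxO6-/-. The tissues were separated by hand with scissors from dissected heads. There are no replicate arrays, and every difference compares 1 RNA sample with another, with no SD. Values are MAS5 signals, which give the brightness of a probe set on a linear scale in arbitrary units, and each array was scaled by the authors to the same trimmed mean. The median over every probe set that is no control, 101, is called the floor here, and a signal under it was taken as dim. A gene counts as measured in a tissue where the mean of its WT and FoxO6-/- signals, from its brightest probe set, reached the floor. As a measure of scatter within an array pair, the log2 ratios from the 2 brightest probe sets of the same gene differed with an SD of 0.39 in brain, over 4927 genes, and of 0.42 in mandible and maxilla.

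Brown adipocytes burn fatty acids to make heat. Noradrenaline raises cyclic AMP in the cell, which releases fatty acids from lipid droplets and induces the thermogenic genes, and UCP1 then lets protons leak across the inner mitochondrial membrane so that respiration runs without making ATP. In newborn mice brown fat is found between the shoulder blades and in the neck, and brain and jaw are not sites of thermogenesis, although several of the 10 genes are also used by muscle, skin glands, glia or neurons.

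The WT brain array stands apart in markers of fat and in 4 genes of a thyroid, parathyroid and airway list. Genes of skeletal muscle and bone were bright on both brain arrays. The muscle list had summed signals of 106306 in WT and 85639 in FoxO6-/- brain, and bone genes are given below. Of 19 adipocyte genes with a probe set, 18 reached the floor on the WT brain array and 16 on the FoxO6-/- brain array. On each mandible and maxilla array 11 did. The summed signals were 119913 in WT and 37670 in FoxO6-/- brain, against 30801 to 31375 on the mandible and maxilla arrays. Car3, the brightest gene of the list on all 4 arrays, gave a large part of each sum, with 35444, 19337, 15370 and 14894 in WT brain, FoxO6-/- brain, WT and FoxO6-/- mandible and maxilla. Single genes placed FoxO6-/- brain differently against mandible and maxilla. Adipoq had 1368 against 10.5 and 29.6, and Lpl 5064 against 5294 and 5291. A list of thyroid, parathyroid and airway genes, chosen after the values were seen, had a summed signal of 4708 on the WT brain array and of 417 to 490 on the other 3. In it Pth, the parathyroid hormone gene, had a signal of 668 in WT brain and 10.1 in FoxO6-/- brain, and Tg, the thyroglobulin gene, 626 and 28.8. Of its 10 genes with a probe set 4 (Tg, Pth, Scgb3a1 and Scgb3a2) reached the floor on the WT brain array and 0 on the FoxO6-/- brain array. The other thyroid and parathyroid genes, with the defining factor genes Nkx2-1 and Pax8 among them, were under the floor on all arrays. In WT and FoxO6-/- brain Tshr had 73.9 and 82.6, Casr 35.0 and 70.1 and Pax8 38.7 and 54.0. Slc5a5 had 40.2 and 14.6, and Nkx2-1 6.16 and 5.35. Tg, Pth, Scgb3a1 and Scgb3a2 counted as measured in brain through their WT signals alone, since every FoxO6-/- signal was under the floor. A low median was thus fixed by the choice of genes, and its value of -4.72 is only a description. Over the list it was -2.64 with no floor and -3.21 with low signals raised to the floor. The tissue labels were checked on defining genes. The neuronal factor gene Neurod6 had 3222 and 3942 on the WT and FoxO6-/- brain arrays and lay under the floor in mandible and maxilla. The enamel gene Enam had 1.25 and 22.4 in brain and 172 and 458 in mandible and maxilla. The rest of the jaw list separated the tissues less, and 5 of its 6 genes reached the floor on both brain arrays. The bone gene Ibsp had 10179 and 9445 in WT and FoxO6-/- brain and 15872 and 18665 in mandible and maxilla. Col1a1 had 11231, 9307, 13971 and 13174 in the same order. Krt14 had 1476, 2442, 4782 and 7988, Msx1 229, 320, 1252 and 1203, and Dlx5 500, 598, 746 and 514. The ratio of 3' to 5' signal of Actb, a measure of RNA integrity, was 2.21 to 2.23 on 3 arrays and 3.37 on the FoxO6-/- mandible and maxilla array. No probe set carried the name Foxo6, which left no check of the genotypes on the deleted locus.

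In brain the thermogenic genes were lower on the FoxO6-/- array, and the difference was large for the genes of the heat-producing mitochondrion and lipid droplet and for the receptor genes Ppara and Klb, and small for the coregulator genes Ppargc1a and Prdm16 and the deiodinase gene Dio2. Of the 9 members measured in brain all 9 were lower and 6 were at least 2-fold lower (Ucp1, Cidea, Cox8b, Cox7a1, Ppara and Klb), while 0 were at least 2-fold higher. Among all 12327 genes measured in brain 42.7% were lower, 2.03% were at least 2-fold lower and 1.13% at least 2-fold higher. The median log2 ratio was -3.09 over the 9 members and 0.05 over all genes. The members were chosen with this contrast known, so the shares stand beside each other only as a description. In RNA of a whole tissue, fewer cells of a type and less RNA per cell cannot be told apart.

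Ucp1, which encodes the uncoupling protein that defines brown fat, had a signal of 8381 in WT brain, 405 in FoxO6-/- brain, 1.58 in WT mandible and maxilla and 4.50 in FoxO6-/- mandible and maxilla. It was thus above the floor on the brain arrays alone, 20.7-fold lower in FoxO6-/- than in WT brain (log2 ratio -4.37), and in FoxO6-/- brain still at least 4.02-fold above the floor that bounds mandible and maxilla. Cidea, a lipid droplet protein abundant in brown fat, had 10248 in WT brain, 728 in FoxO6-/- brain, 328 in WT and 402 in FoxO6-/- mandible and maxilla. Its signal in WT brain stood 14.1-fold above FoxO6-/- brain (log2 ratio -3.82).

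**Figure D1:**
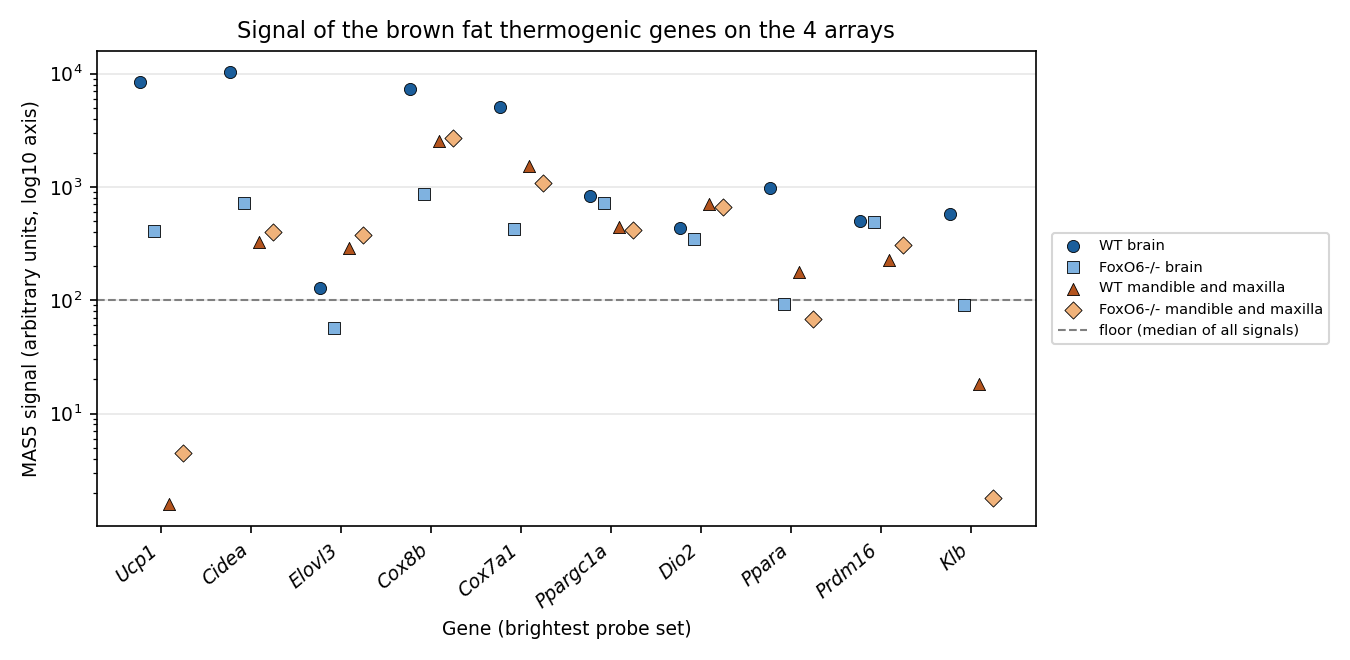
MAS5 signal (vertical axis, arbitrary units, log10 scale) of the brightest probe set of each of the 10 genes (horizontal axis) on the 4 arrays, 1 point per array, with the floor of 101 as a dashed line. The WT brain array is the highest for 8 genes, with Ucp1 at 8381 and Cidea at 10248, whereas Elovl3 and Dio2 are higher on a mandible and maxilla array.

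Cyclic AMP is a main inducer of thermogenic genes. The 250 bases before the transcription start were searched on both strands for the core of the cyclic AMP response element, TGACG, for its palindromic form, TGACGTCA, which contains the core on both strands, and for AGGTCA, the half-site of nuclear receptors such as PPAR. RefSeq windows (GRCm38.p6) were used for 8 of the 10 members, and none was used for Cidea and Elovl3. TGACG was in the windows of 5 of the 8, Ucp1, Ppara, Klb, Ppargc1a and Dio2, and in 17.8% of all 32851 windows. TGACGTCA was in that of Dio2 and in 1.55% of all windows. AGGTCA was in that of Ucp1 and in 14.02% of all windows. A direct repeat of AGGTCA with 1 base between, the element bound by PPARA with RXR, was in 0 of the 8 and in 0.0335% of all windows, and TCAAGGTCA, the extended half-site of estrogen-related receptors, in 0 of the 8 and in 0.387%. The windows below are 3 of members that were over 2-fold lower in FoxO6-/- brain and that of Dio2, which was not, each 5' to 3' on the strand of the gene and ending at the base before the start, with TGACG, TGACGTCA and AGGTCA in capitals.
Ucp1, chr8:83290098-83290347 (plus strand): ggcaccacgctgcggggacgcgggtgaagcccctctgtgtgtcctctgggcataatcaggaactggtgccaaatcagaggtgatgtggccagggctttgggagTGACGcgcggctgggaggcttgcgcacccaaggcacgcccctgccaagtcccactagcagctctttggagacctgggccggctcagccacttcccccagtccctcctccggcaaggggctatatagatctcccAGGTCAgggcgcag
Ppara, chr15:85735526-85735775 (plus strand): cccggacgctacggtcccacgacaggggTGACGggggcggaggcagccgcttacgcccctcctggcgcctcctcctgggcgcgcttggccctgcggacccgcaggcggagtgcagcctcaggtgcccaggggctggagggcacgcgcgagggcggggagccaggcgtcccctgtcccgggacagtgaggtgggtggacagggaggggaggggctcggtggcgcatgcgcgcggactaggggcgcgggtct
Klb, chr5:65348161-65348410 (plus strand): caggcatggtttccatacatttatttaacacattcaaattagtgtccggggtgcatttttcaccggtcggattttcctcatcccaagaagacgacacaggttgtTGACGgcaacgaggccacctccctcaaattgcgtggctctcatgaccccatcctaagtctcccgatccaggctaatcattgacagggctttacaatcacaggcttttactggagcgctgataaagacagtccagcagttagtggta
Dio2, chr12:90739039-90739288 (minus strand): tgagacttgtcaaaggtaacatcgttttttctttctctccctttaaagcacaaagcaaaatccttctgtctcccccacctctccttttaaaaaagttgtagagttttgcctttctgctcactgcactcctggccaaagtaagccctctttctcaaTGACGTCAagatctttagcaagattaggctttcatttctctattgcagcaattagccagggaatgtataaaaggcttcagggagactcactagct
The core thus occurred in windows of genes with a large and with a small difference between the genotypes, 3 of the 5 searched members that were at least 2-fold lower in brain and 2 of the other 3. A match is a string of letters and does not show that a factor bound there.

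Cox8b and Cox7a1 encode subunits of cytochrome c oxidase that replace the ubiquitous subunits in brown fat, heart and skeletal muscle. Cox8b had a signal of 7344 in WT brain, 864 in FoxO6-/- brain, 2555 in WT and 2686 in FoxO6-/- mandible and maxilla. Cox7a1 had 5059, 426, 1516 and 1076 in the same order. Both were lowest on the FoxO6-/- brain array and highest on the WT brain array, with log2 ratios in brain of -3.09 and -3.57. Their order between tissues turned with the genotype. The log2 ratio of brain over mandible and maxilla was 1.52 for Cox8b and 1.74 for Cox7a1 in WT, and -1.64 and -1.34 in FoxO6-/-. The ubiquitous counterparts differed little in brain, with log2 ratios of -0.33 for Cox8a and -0.24 for Cox7a2.

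Because muscle also expresses these subunits, skeletal muscle genes were set beside them. Of 18 muscle genes 17 were lower in FoxO6-/- brain, with a median log2 ratio of -0.39, and 1 was at least 2-fold lower, the myoglobin gene Mb with 743 in WT and 111 in FoxO6-/- brain (log2 ratio -2.74), which brown fat uses as well. Casq1, the calsequestrin of muscle, had -0.83, the myosin gene Myh1 -0.76 and the actinin gene Actn3 -0.74, while Cox6a2, the muscle subunit of the same enzyme and chosen after its values were seen, had -0.29. The summed signal of the muscle list was 106306 in WT and 85639 in FoxO6-/- brain, and 193663 and 205577 in mandible and maxilla. The part of muscle RNA in the signals of Cox8b and Cox7a1 was not tested.

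Ppara, the nuclear receptor that turns on fatty acid oxidation, has 3 probe sets, and all 3 gave the same order of the brain arrays. The brightest had a signal of 970 in WT brain, 92.6 in FoxO6-/- brain, 176 in WT and 68.7 in FoxO6-/- mandible and maxilla. It was 5.52-fold higher on the WT brain array than on the next array. Since 92.6 lies under the floor, FoxO6-/- brain was at least 9.63-fold lower than WT brain, and the measured log2 ratio was -3.39. The second had 752, 138, 243 and 121 in the same order and the third 620, 69.8, 164 and 82.9, with log2 ratios in brain of -2.44 and -3.15.

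Klb, the co-receptor that lets FGF21 act on adipocytes and liver, reached the floor on the WT brain array alone. Its brighter probe set had 581 in WT brain, 90.9 in FoxO6-/- brain, 18.2 in WT and 1.79 in FoxO6-/- mandible and maxilla. FoxO6-/- brain was thus at least 5.77-fold lower than WT brain (measured log2 ratio -2.68). The other Klb probe set was under 8 units on all 4 arrays.

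Ppargc1a, Prdm16 and Dio2 showed brain ratios near or within the scatter between probe sets. Ppargc1a, the coactivator that drives mitochondrial biogenesis and is also active in neurons, had 832 in WT brain, 725 in FoxO6-/- brain, 446 in WT and 417 in FoxO6-/- mandible and maxilla. All 5 of its probe sets were lower in FoxO6-/- brain, with log2 ratios from -0.44 to -0.20, and all 5 had their highest signal on the WT brain array. Prdm16, which specifies brown fat and also acts in neural progenitors, had 500 in WT and 492 in FoxO6-/- brain (log2 ratio -0.02), and 225 and 304 in mandible and maxilla. Its next probe set had 180.3 in WT and 145 in FoxO6-/- brain, a log2 ratio of -0.31, and 103 in WT and 45.7 in FoxO6-/- mandible and maxilla, with a mean under the floor. The remaining probe sets were under the floor on all 4 arrays.

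Dio2, the deiodinase that makes active thyroid hormone and in the brain belongs to glia, had 437 in WT brain, 344 in FoxO6-/- brain, 701 in WT and 665 in FoxO6-/- mandible and maxilla. It was higher in mandible and maxilla than in brain in both genotypes, with log2 ratios of brain over mandible and maxilla of -0.68 in WT and -0.95 in FoxO6-/-, and its log2 ratio between genotypes in brain was -0.34. Its other probe sets had a mean under the floor in both tissues. Of 5 measured astrocyte genes 1 was lower in FoxO6-/- brain, with a median of 0.10. Elovl3, an elongase of very long fatty acids in brown fat and in sebaceous glands, was not measured in brain, with 129 in WT and 56.8 in FoxO6-/-. It had 287 in WT and 379 in FoxO6-/- mandible and maxilla, the latter being its highest of the 4 arrays.

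**Figure D2:**
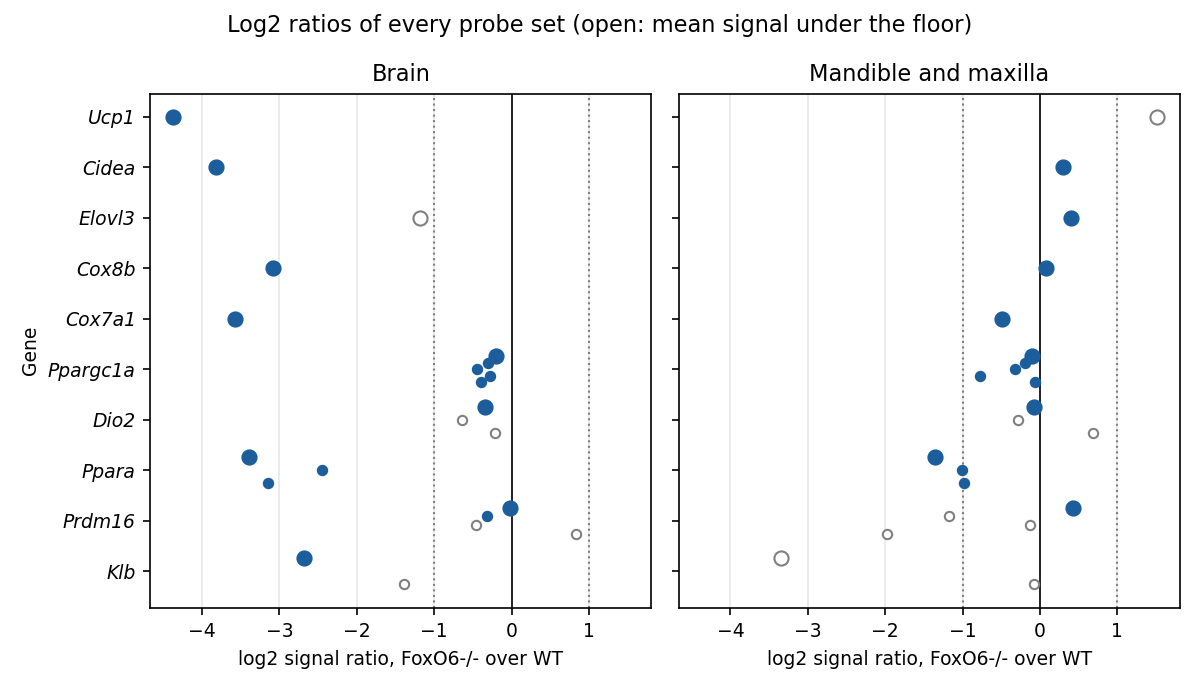
Log2 ratio of the signal in FoxO6-/- over WT (horizontal axis) of all 22 probe sets of the 10 genes (vertical axis) in brain (left) and in mandible and maxilla (right), from 1 array per genotype. Large points are the brightest probe sets, open points have a mean signal under the floor, and dotted lines mark 2-fold. In brain 6 genes lie between -4.37 and -2.68, and in mandible and maxilla the measured genes lie between -1.36 and 0.43.

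In mandible and maxilla the 8 measured members split evenly, 4 lower and 4 higher in FoxO6-/-, with a median log2 ratio of -0.0016. Of all 12186 measured genes 51.3% were lower, and their median was -0.0082. Of the 8, Ppara was at least 2-fold lower and 0 were at least 2-fold higher, while 1.69% of all measured genes were at least 2-fold lower and 0.591% at least 2-fold higher. Ppara had a log2 ratio of -1.36, with -1.001 and -0.98 from its other probe sets, so that the lower signal in FoxO6-/- held for all 3 in both tissues. Its FoxO6-/- signal was under the floor, and against the floor the difference was at least 1.75-fold, which does not reach 2-fold.

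Cox7a1 had a log2 ratio of -0.49 and Cox8b one of 0.07 in mandible and maxilla, where 13 of 18 muscle genes were lower with a median of -0.08. Among these Actn3 had -0.88, Pygm (muscle glycogen phosphorylase) -0.70, the calcium channel gene Ryr1 -0.68 and the calcium pump gene Atp2a1 -0.64. Cidea had 0.29, Elovl3 0.40 and Prdm16 0.43, all of them within or close to the scatter of 0.42 between probe sets. The higher Prdm16 signal rests on its brightest probe set, since its other 3, all with a mean under the floor there, were lower in FoxO6-/- than in WT. Dio2 had -0.08, and the 5 probe sets of Ppargc1a ran from -0.77 to -0.07. Ucp1 and Klb were under the floor on both mandible and maxilla arrays and give no fold. The FoxO6-/- mandible and maxilla array is the one with the highest 3' to 5' ratio, and its part in these ratios was not tested.

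By array, 8 of the 10 members had their highest signal on the WT brain array, while Dio2 was highest in WT and Elovl3 in FoxO6-/- mandible and maxilla, and 0 were highest in FoxO6-/- brain. Of 12569 genes measured over the 4 arrays, 17.5% were highest on the WT brain array and 28.4% on the FoxO6-/- brain array. For Prdm16 and Ppargc1a the WT brain array led the FoxO6-/- brain array by 1.02-fold and 1.15-fold only. In 6 members, the same 6 that were over 2-fold lower in FoxO6-/- brain, the WT brain array was at least 2-fold above each of the other 3 arrays, a pattern that 0.676% of the 12569 genes showed. This limit was added after the values were seen.

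The genes whose signals over the 4 arrays most resembled those of Ucp1 included fat genes and genes of other tissues. Of the 10 nearest outside the set, 4 are on the adipocyte list (Adipoq, Thrsp, Mrap and Pck1) and 2 are airway secretoglobin genes. The count of 4 depends on that list, which does not hold Gpd1, Adig or Adhfe1. Likeness was taken as the Euclidean distance between log2 signals, raised to the floor and centred on their mean over the 4 arrays, among 992 genes with a range of at least 2 log2 units. Cidea was the nearest of all at 1.36 log2 units. Outside the set the nearest were Adipoq (adiponectin) at 1.43, Gpd1 (a glycerol phosphate dehydrogenase) at 1.71, Thrsp (a lipogenic regulator) at 2.16, Adig (adipogenin) at 2.19 and Snhg11, a noncoding RNA gene expressed in neurons, at 2.20. They were followed by the airway secretoglobin genes Scgb3a2 at 2.24 and Scgb3a1 at 2.59, Mrap at 2.34, Adhfe1 at 2.50 and Pck1 at 2.69. Adipoq had a signal of 12305 in WT brain, 1368 in FoxO6-/- brain and 10.5 and 29.6 in WT and FoxO6-/- mandible and maxilla. Scgb3a2 had 1835, 57.4, 105 and 117 in the same order. Among the other members Ppara lay at 3.11, Klb at 3.21, Cox7a1 at 4.05 and Cox8b at 4.35. With 4 arrays many genes can share an order of signals, and shared function or control cannot be read from it.

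**Figure D3:**
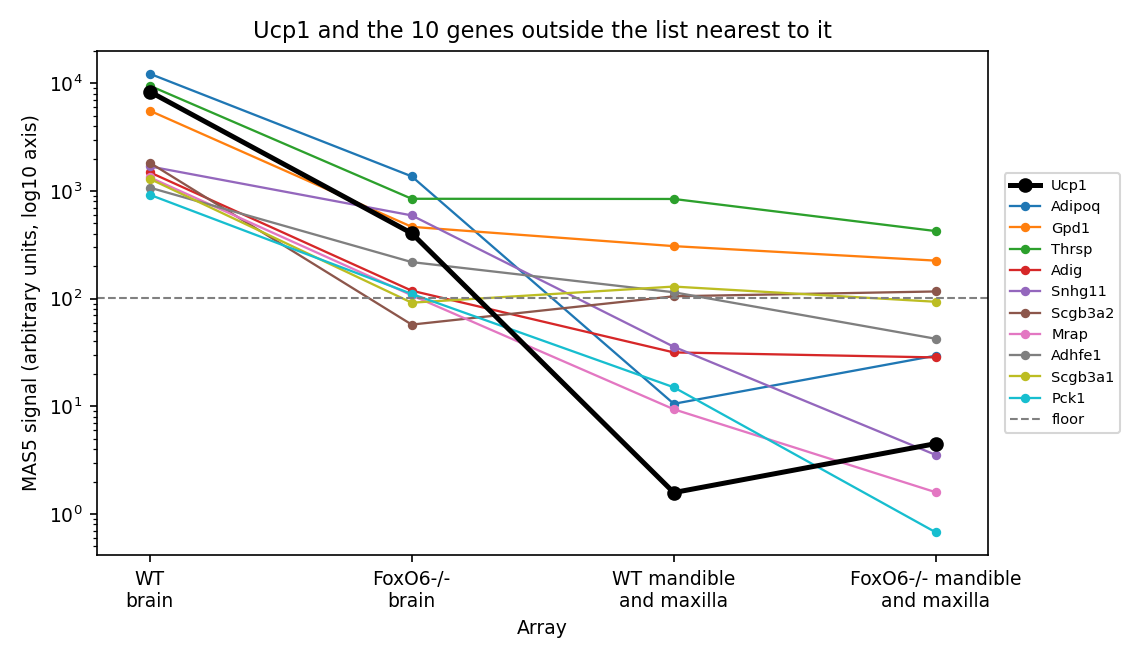
MAS5 signal (vertical axis, arbitrary units, log10 scale) of Ucp1 (black) and of the 10 genes outside the set nearest to it (colours) on the 4 arrays (horizontal axis), with lines joining the points of a gene and the floor dashed. Signals under the floor were raised to it before distances were taken. All 11 genes are highest on the WT brain array, where Ucp1 has 8381 and Adipoq 12305.

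Other genes of brown fat followed the members in part. Of 17 measured genes of thermogenic signalling and its regulators 13 were lower in FoxO6-/- brain, 7 of them at least 2-fold, and 0 were at least 2-fold higher, with a median log2 ratio of -0.76. The largest differences were those of the proton channel gene Otop1 with -3.55, the amino acid transporter gene Slc36a2 with -3.18, Pparg, the master regulator of fat cells, with -3.04, and the potassium channel gene Kcnk3 with -3.02. The FoxO6-/- brain signals of Otop1 and Kcnk3 were under the floor, so that the size of their ratios is uncertain. In mandible and maxilla 8 of 15 were lower and 1 was at least 2-fold lower, Ebf2, a selector of brown precursors, with 1512 in WT and 557 in FoxO6-/- (log2 ratio -1.44). The median there was -0.08.

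Genes of fatty acid oxidation, the fuel pathway of thermogenesis, were lower as a group in FoxO6-/- brain, with 18 of 20 lower, 16 of them at least 2-fold, and a median of -1.72. Eci1, an enoyl-CoA isomerase, had 5733 in WT and 1132 in FoxO6-/- brain (log2 ratio -2.34), and the acyl-CoA dehydrogenase genes Acadvl and Acadl had -2.09 and -2.00. Slc27a2, a fatty acid transporter gene, went the other way with 207 and 749 (log2 ratio 1.86) and was the 1 gene at least 2-fold higher. The list had a mandible and maxilla median of 0.03, with 2 of 20 at least 2-fold lower, Slc27a2 with -1.41 and Cpt1a, the carnitine palmitoyltransferase of liver type, with -1.04.

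The respiratory chain, which all cells use, differed less. Of 19 genes 18 were lower in FoxO6-/- brain, with a median of -0.45, and 1 was at least 2-fold lower, Cox7c with -1.14. Cox7c was by far the dimmest of the list, with 433 in WT and 197 in FoxO6-/- brain, where the next gene, Ndufs1, had 4718 and 2898. Of the same 19 genes 15 were higher in FoxO6-/- mandible and maxilla, with a median of 0.14. The adipocyte list had 17 of 17 measured genes lower in FoxO6-/- brain, 15 of them at least 2-fold, with a median of -2.40 and with Mrap, a melanocortin receptor partner, at -3.64 and Cidec, the droplet protein related to Cidea, at -3.28. Over 11 genes measured in mandible and maxilla it had a median of 0.08 and 1 at least 2-fold lower, the carboxylesterase gene Ces1d with -2.06. Other tissues gave little signal or little difference in brain. Of the heart muscle genes only Myl4 was measured (-0.39), of the liver genes 0, 2 of the erythroid genes had a median of -0.38 and 5 jaw genes one of 0.26. The part of fat, muscle, bone, thyroid, parathyroid and airway tissue in the brain ratios of the members was not tested.

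The nearest relatives of the members by sequence family mostly stayed within 2-fold in brain. Of 14 measured paralogs 9 were lower in FoxO6-/- brain, 3 at least 2-fold (Cidec, Pparg and Ppargc1b), and the median was -0.06. The lists overlap, so these counts are not separate. Cidec and Pparg are also adipocyte list genes, and Pparg and Ppargc1b are also on the thermogenic signalling list. Cox8a and Cox7a2 are also on the respiratory chain list. Ppargc1b, the coactivator related to Ppargc1a, had 1361 in WT and 477 in FoxO6-/- brain, a log2 ratio of -1.51 where Ppargc1a had -0.20. Ppard, the ubiquitous PPAR, had 0.17, and the elongase genes Elovl1, Elovl4, Elovl5, Elovl6 and Elovl7 ran from -0.40 to 0.25. Mecom, the relative of Prdm16, had -0.06, Cox7a2l -0.06 and Pprc1, a relative of Ppargc1a, 0.09. Ucp3, Cideb, Dio1 and Kl, the FGF23 co-receptor gene related to Klb, were under the floor on both brain arrays. The FoxO6-/- signal of Cidec, 68.7, was also under the floor. Among the 14 paralogs measured in mandible and maxilla 7 were lower, 0 of them by 2-fold, with a median of 0.11.

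**Figure D4:**
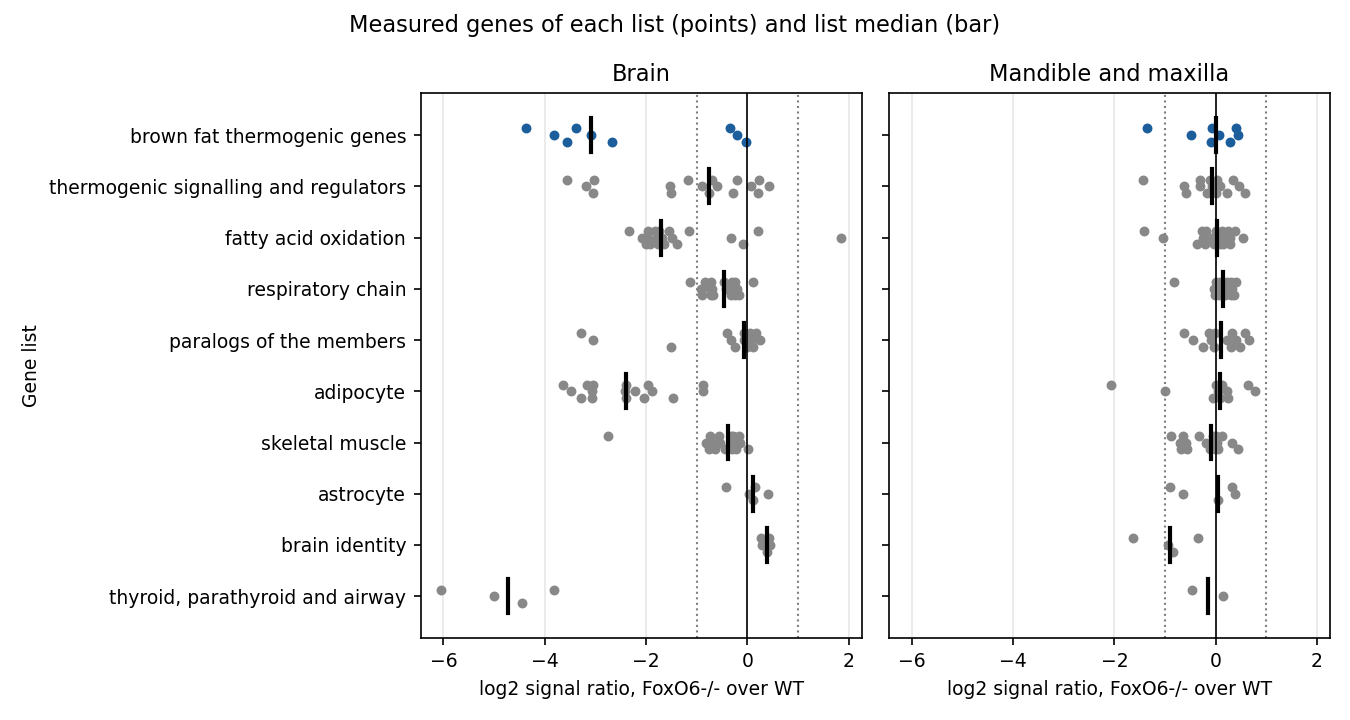
Log2 ratio of the signal in FoxO6-/- over WT (horizontal axis) of the measured genes of each list (vertical axis) in brain (left) and in mandible and maxilla (right). Each point is a gene, black bars are list medians, dotted lines mark 2-fold, and the set described here is in blue. The thyroid, parathyroid and airway list was chosen after the values were seen. Its 4 genes measured in brain passed the floor there through WT alone. In brain the medians are -3.09 for the thermogenic genes, -2.40 for adipocyte genes and -1.72 for fatty acid oxidation, and in mandible and maxilla those medians lie between -0.0016 and 0.08.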

How the data were processed

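Expression was measured on 4 Affymetrix mouse arrays, 1 for each tissue and genotype. The deposited values are the intensity of each probe set as a MAS5 signal on a linear scale, which the authors scaled to a trimmed mean of 500.003 on every array (2% left out at each end), and no further normalization was applied. Which MAS5 version was used is not stated in the text read here. Of 45101 probe sets 64 are controls, 34945 of the others name 1 gene in the platform table, 932 several and 9160 none. Symbols were updated through Entrez IDs of RefSeq assembly GRCm38.p6. Where a gene had several probe sets, the one brightest on average was taken, and the gene was measured in a tissue where the mean of the compared signals reached 101, the median of all signals without controls. Log2 ratios are FoxO6-/- over WT, and the limit for counts was 2-fold.

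With 1 array per group no test was made, and the number of arrays limits precision. The authors used limma, which was not run here because the members were chosen on the same contrasts. The members, the 12 gene lists and the alternatives were chosen with earlier results of these data known, and the thyroid, parathyroid and airway list after all values were seen. Genes were named from all members and paralogs, the 4 genes of each list and tissue with the largest ratios of either sign, and the 10 genes nearest to Ucp1 among genes with a range of 2 log2 units. The results were recomputed after quantile normalization or centring on the median, without the floor or with one at the upper quartile (524), after lifting dim signals to the floor, and with all probe sets of a gene averaged or those shared between genes left out. The steps were tested on simulated data. Calculations were made in pandas 2.3.3, numpy 2.4.6 and scipy 1.17.1 under Python 3.11.15, with figures by matplotlib 3.10.9.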

Additional observations from a re-analysis of the deposited data

Results flagged for a closer look

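Some results had opposite signs in brain and in mandible and maxilla. With 1 array per genotype in each tissue, none of these differences between the tissues was tested. The values are the log2 ratio of FoxO6-/- over WT in brain minus that in mandible and maxilla. The difference was -4.11 for Cidea (-3.82 and 0.29), -3.16 for Cox8b (-3.09 and 0.07) and -0.45 for Prdm16 (-0.02 and 0.43). Among list medians it was -2.48 for adipocyte genes (-2.40 and 0.08), -1.74 for fatty acid oxidation (-1.72 and 0.03), -0.59 for the respiratory chain (-0.45 and 0.14) and -0.17 for the paralogs of the members (-0.06 and 0.11). Several of these signs are not stable in mandible and maxilla. There the adipocyte median was -0.00069 without the floor and -0.04 when all probe sets of a gene were averaged, the respiratory chain median was -0.04 after quantile normalization, and the paralog median was -0.02 without the floor, so that the opposite sign was lost. For Prdm16 it rests on the brightest probe set, since the other 3, under the floor in mandible and maxilla, were lower there, with -1.17 for the next. Neuronal genes went the other way, with 1.29 (0.39 in brain and -0.90 in mandible and maxilla).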

How the results depend on the processing

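In brain the count of members at least 2-fold lower ran from 5 to 7 over the 7 alternatives. It was 5 of 6 measured with the floor at the upper quartile, 5 of 7 with probe sets averaged and 7 of 10 with no floor. With no floor Elovl3 was added, from 129 in WT and 56.8 in FoxO6-/- brain. The share of all genes past 2-fold was not computed under the alternatives. The median log2 ratio of the members in brain ran from -3.48 to -2.88. In mandible and maxilla the count of 1 depends on the floor, because Ppara is dim there and Klb and Ucp1 are under it. It was 2 with no floor, where 1 member, Ucp1, was at least 2-fold higher from signals under the floor, and 0 with the floor at the upper quartile or with low signals raised to the floor. With the floor at the upper quartile 5 of 6 members were highest on the WT brain array. In brain the median of the thyroid, parathyroid and airway list, -4.72 as reported, was -2.64 with no floor and -3.21 with low signals raised to the floor, and that of the astrocyte list, 0.10 as reported, was 0.57 when all probe sets were averaged, where the cause was not tested. Of the other values of these counts and list medians under the alternatives, all 171 kept their size, taken as within 1.5 times for counts and within the SD between probe sets for medians. No log2 ratio or median past 2-fold changed sign among the values computed. No paired analysis was possible because the labels give no replicate numbers and each group has 1 array. A fit of genotype with tissue as a block, which would take brain and mandible and maxilla as replicates of each other, was not made. Differences of signals under the floor cannot be ranked.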
